A study of Homo sapiens with 18 samples.

Results

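The 44 genes described here encode the enzymes of glycolysis, the membrane carriers of glucose and lactate, and genes that the hypoxia-inducible factor (HIF) switches on when oxygen is short. They were named by symbol, with no threshold on a measured value but with earlier results of these data known, and looked up in 4 deposited tables from a study of the splicing factor RBM39 in multiple myeloma cells. All 44 were listed in each of the 3 expression tables, among 16532 named rows for H929 and 58884 in each of the tables for MM1S. All 44 were also in the RNA immunoprecipitation table of 20308 named rows, where ERO1A appears under its older symbol. By role they fall into 14 glycolysis enzymes that most cells use (called constitutive here), 3 isoforms with narrower expression (HK2, ALDOC and ENO2) and 4 carriers. The others are 3 switches of carbon flow (PDK1, PFKFB3 and PFKFB4), 3 genes of oxygen sensing (HIF1A, EGLN1 and EGLN3) and 17 further HIF-induced genes.

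Glycolysis breaks glucose down to pyruvate in the cytosol, and lactate dehydrogenase can then turn pyruvate into lactate, which the cell exports. HIF is a transcription factor made of an alpha subunit such as HIF1A, whose protein is hydroxylated by the EGLN enzymes and destroyed while oxygen is present, and of a stable beta subunit, ARNT. Without oxygen it binds DNA at the core letters ACGTG or GCGTG and raises carbonic anhydrase IX, adrenomedullin and other genes. It also raises many of the glycolysis enzymes themselves, so that the constitutive and the hypoxia-specific members are not separate in their regulation. Cancer cells, myeloma cells included, often run glycolysis at high rates in the presence of oxygen.

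H929 and MM1S are established human myeloma cell lines, grown from malignant plasma cells. In H929, 3 libraries labelled shRBM39 (a short hairpin RNA against RBM39) stood against 3 labelled scramble. In MM1S, 2 shRBM39 libraries stood against 2 scramble libraries, and 3 libraries treated with indisulam against 3 with its vehicle DMSO. Indisulam is a sulfonamide that brings RBM39 protein to the DCAF15 ubiquitin ligase, which leads to its degradation. The fourth experiment was RNA immunoprecipitation (RIP) in MM1S, with 1 library from an antibody to RBM39 and 1 from control IgG. The labels give no dose, no time and no oxygen level, do not tell if the MM1S numbers 1 and 2 stand for hairpins or for replicates (replicates were assumed), and name no separate cultures. The p-values therefore measure the spread between these libraries alone, which may be technical. RNA came from whole cultures, in which fewer cells of a type and less RNA per cell cannot be told apart.

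The values are FPKM in the H929 and RIP tables and TPM in both MM1S tables; both are relative abundances per transcript length. The FPKM columns of H929 do not share a total. They sum to 409102 to 428099 in the libraries labelled shRBM39, against 374511 to 374807 in those labelled scramble. No fit scaled them to a common total, so small higher differences in H929 may depend on the unit. RBM39 itself went against the labels in H929, with 38.3, 38.6 and 35.6 FPKM in the libraries labelled shRBM39, against 4.56, 4.43 and 4.51 FPKM in those labelled scramble. The H929 groups are therefore named by their labels throughout, and no direction in H929 can be read as an effect of losing RBM39. In MM1S, RBM39 had 64.8 and 52.2 TPM in shRBM39 libraries, against 176 and 205 TPM in scramble libraries (log2 difference -1.69 ± 0.16 SE, limma adjusted p = 0.0121). In the comparison with indisulam, which acts on the protein, RBM39 mRNA was 226, 217 and 149 TPM with indisulam, against 189, 178 and 196 TPM with DMSO, and the groups overlapped. All 9 plasma cell markers looked up, SDC1 and TNFRSF17 among them, averaged at least 1 in every group. They moved with the comparisons: in H929, 6 of the 9 were higher and 3 lower, and their summed level was 7922 to 8059 FPKM in the libraries labelled shRBM39, against 5011 to 5130 FPKM in those labelled scramble. Their sum was 7478 to 8646 TPM in shRBM39 libraries, against 4578 to 6831 TPM in scramble libraries, with 1 of 9 higher and 0 lower. It was 5944 to 7183 TPM with indisulam, against 7527 to 7885 TPM with DMSO, with 1 of 9 higher and 3 lower. Their part in the results was not tested. Of 13 markers of other cell types, 10 were in the H929 table, where 4 passed the filter and all 4 (CD3E, CD68, ACTA2 and PECAM1) were lower in the libraries labelled shRBM39. CD3D was listed at 0 in all 3 of these and LYZ in all 3 labelled scramble. The summed level of the 10 was 37.1 to 39.8 FPKM in the libraries labelled shRBM39, against 83.2 to 93.3 FPKM in those labelled scramble. Their part in the H929 differences was not tested. In MM1S the summed level of the 13 markers was 32.8 to 51.5 TPM in shRBM39 libraries, against 50.7 to 57.5 TPM in scramble libraries. It was 41.4 to 58.9 TPM with indisulam, against 42.1 to 46.9 TPM with DMSO. CD3D was at 0 in every MM1S library, and CD3E was lower in both MM1S comparisons; their part in the MM1S results was not tested. One library stood apart: indisulam replicate 3 held the lowest of the 3 indisulam values for 31 of the 44 genes, and without it the calls over all genes numbered 8839 of 13445 in place of 4024. In H929 the depth of the other 5 libraries was 0.975 to 1.15 times that of scramble replicate 1, as read from the steps of low values; the depth of the other libraries is unknown.

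Promoter sequence was available for 38 of the 44 genes (RefSeq, GRCh38.p14), and the 250 bases before each listed start were searched on both strands for the HIF core letters ACGTG and GCGTG, counting overlapping matches such as CACGTG once. At least 1 match was present in a listed promoter of 32 of the 38 genes (84.2%), against 47.4% of all 27305 genes in the table; counted by window, which allows for genes with several listed starts, the shares were 44 of 71 (62.0%) and 43.2% of 35116. ACGTG alone was present for 65.8% of the 38 genes, against 21.7% of all genes. The constitutive enzymes had a match for 11 of 14 genes and the hypoxia-specific genes for 13 of 15. By window the constitutive enzymes stood at 15 of 33 (45.5%), near the 43.2% of all windows, and the hypoxia-specific genes at 17 of 21 (81.0%). These are letter matches, not binding sites, and a window without a match says nothing on binding elsewhere. The promoters of 4 genes on which the results turn follow, 5′ to 3′ on the gene's own strand, with matches in capitals. The first is LDHA (chr11:18394313-18394562, plus strand), with 3 matches, starting 185, 87 and 73 bases before the start. With indisulam LDHA had the largest log2 difference of value + 1 among the 41 tested members. The second is CA9 (chr9:35673678-35673927, plus strand), with 1 match 18 bases before the start. PPFIA4 (chr1:203026241-203026490, plus strand) has 2 matches. SLC2A1 (chr1:42958869-42959118, minus strand), the largest lower call in H929, has no match in this window.
LDHA: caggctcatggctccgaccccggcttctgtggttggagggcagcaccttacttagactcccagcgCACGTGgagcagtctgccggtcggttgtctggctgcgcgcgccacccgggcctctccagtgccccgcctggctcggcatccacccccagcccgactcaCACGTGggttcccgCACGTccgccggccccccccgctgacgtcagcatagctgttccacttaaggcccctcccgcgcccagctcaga
CA9: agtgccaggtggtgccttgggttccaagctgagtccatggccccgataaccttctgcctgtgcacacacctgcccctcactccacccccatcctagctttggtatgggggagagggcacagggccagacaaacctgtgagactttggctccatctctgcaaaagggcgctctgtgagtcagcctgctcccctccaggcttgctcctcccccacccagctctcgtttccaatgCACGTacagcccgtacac
PPFIA4: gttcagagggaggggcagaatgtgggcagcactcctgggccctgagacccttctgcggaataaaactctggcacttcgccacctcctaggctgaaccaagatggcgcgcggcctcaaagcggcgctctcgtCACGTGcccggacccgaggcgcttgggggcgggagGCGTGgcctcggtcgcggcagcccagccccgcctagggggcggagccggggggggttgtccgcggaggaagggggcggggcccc
SLC2A1: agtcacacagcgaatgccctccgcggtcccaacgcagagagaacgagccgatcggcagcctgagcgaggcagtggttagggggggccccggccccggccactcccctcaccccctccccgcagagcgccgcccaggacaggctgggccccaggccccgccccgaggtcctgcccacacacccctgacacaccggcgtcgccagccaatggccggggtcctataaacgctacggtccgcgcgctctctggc

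The genes were mostly higher in 1 comparison and mostly lower in another. In H929, where 72.2% of all 10360 genes tested were called in either direction, 32 of 42 tested members were higher in the libraries labelled shRBM39 (76.2%, against 24.1% of all genes). A further 7 were lower (16.7%, against 48.1% of all genes), namely HK1, SLC2A1, SLC16A3, PFKFB3, HIF1A, VEGFA and MXI1. The groups did not overlap for the same 32 and 7 (over all genes 25.1% were higher and 49.6% lower without overlap). In MM1S, where 10.3% of all genes were called with knockdown and 29.9% with indisulam, 8 of 42 tested members were lower with knockdown (19.05%, against 6.35% of all 14152 genes) and 1, PFKM, was higher (2.38%, against 3.97%). With indisulam 28 of 41 tested members were lower (68.3%, against 21.5% of all 13445 genes) and 0 higher (8.47% of all genes), by the limma test. At an unadjusted p under 0.05, 31 were lower and 0 higher. Over all genes 5656 of 13445 passed that unadjusted threshold in either direction with indisulam, and 4556 of 14152 with knockdown. The median log2 difference of the tested members was 0.67 in H929, -0.46 with knockdown in MM1S and -0.997 with indisulam, beside all-gene medians of -0.13, -0.00044 and -0.05. The split of all genes into higher and lower calls moved with the scaling: in H929 it was 2498 to 4979 as deposited and 3841 to 3405 after median scaling. With indisulam it was 1139 to 2885 as deposited, 2515 to 2929 after median scaling and 3026 to 2785 after quantile normalization. A call means a Benjamini-Hochberg adjusted p below 0.05 over all genes that reach 1 FPKM or TPM in at least the number of libraries of the smaller group. EGLN3 passed that filter in no table, SLC2A3 failed it in H929, PFKP in both MM1S tables and CA9 with indisulam. CA9 and AK4 in H929, CA9 with knockdown and PFKFB4 and AK4 with indisulam passed through the group where they were high alone, so that their place among the tested genes is not independent of the difference. PPFIA4 had 1.01, 0.971 and 0.954 FPKM in the H929 libraries labelled scramble, and 1.75, 2.12 and 0.810 TPM with indisulam. Neither group alone would have met the filter, so the same limit holds for PPFIA4 in these comparisons.

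Gene by gene, 8 members were called in all 3 comparisons, higher in the libraries labelled shRBM39 in H929 and lower in both MM1S comparisons: TPI1, GAPDH, PGK1, PGAM1, ENO1, PKM, LDHA and LDHB, all from the lower stretch of glycolysis and the step from pyruvate to lactate. A further 18 were higher in H929, not called with knockdown and lower with indisulam. The glucose carrier SLC2A1 and the lactate carrier SLC16A3 were lower in H929 and with indisulam. PDK1, BNIP3, KDM3A and ERO1A were called in H929 alone, in the higher direction, and HK1, PFKFB3, HIF1A, VEGFA and MXI1 in H929 alone, in the lower direction; a call missing in MM1S does not show that the lines differ.

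**Figure D1:**
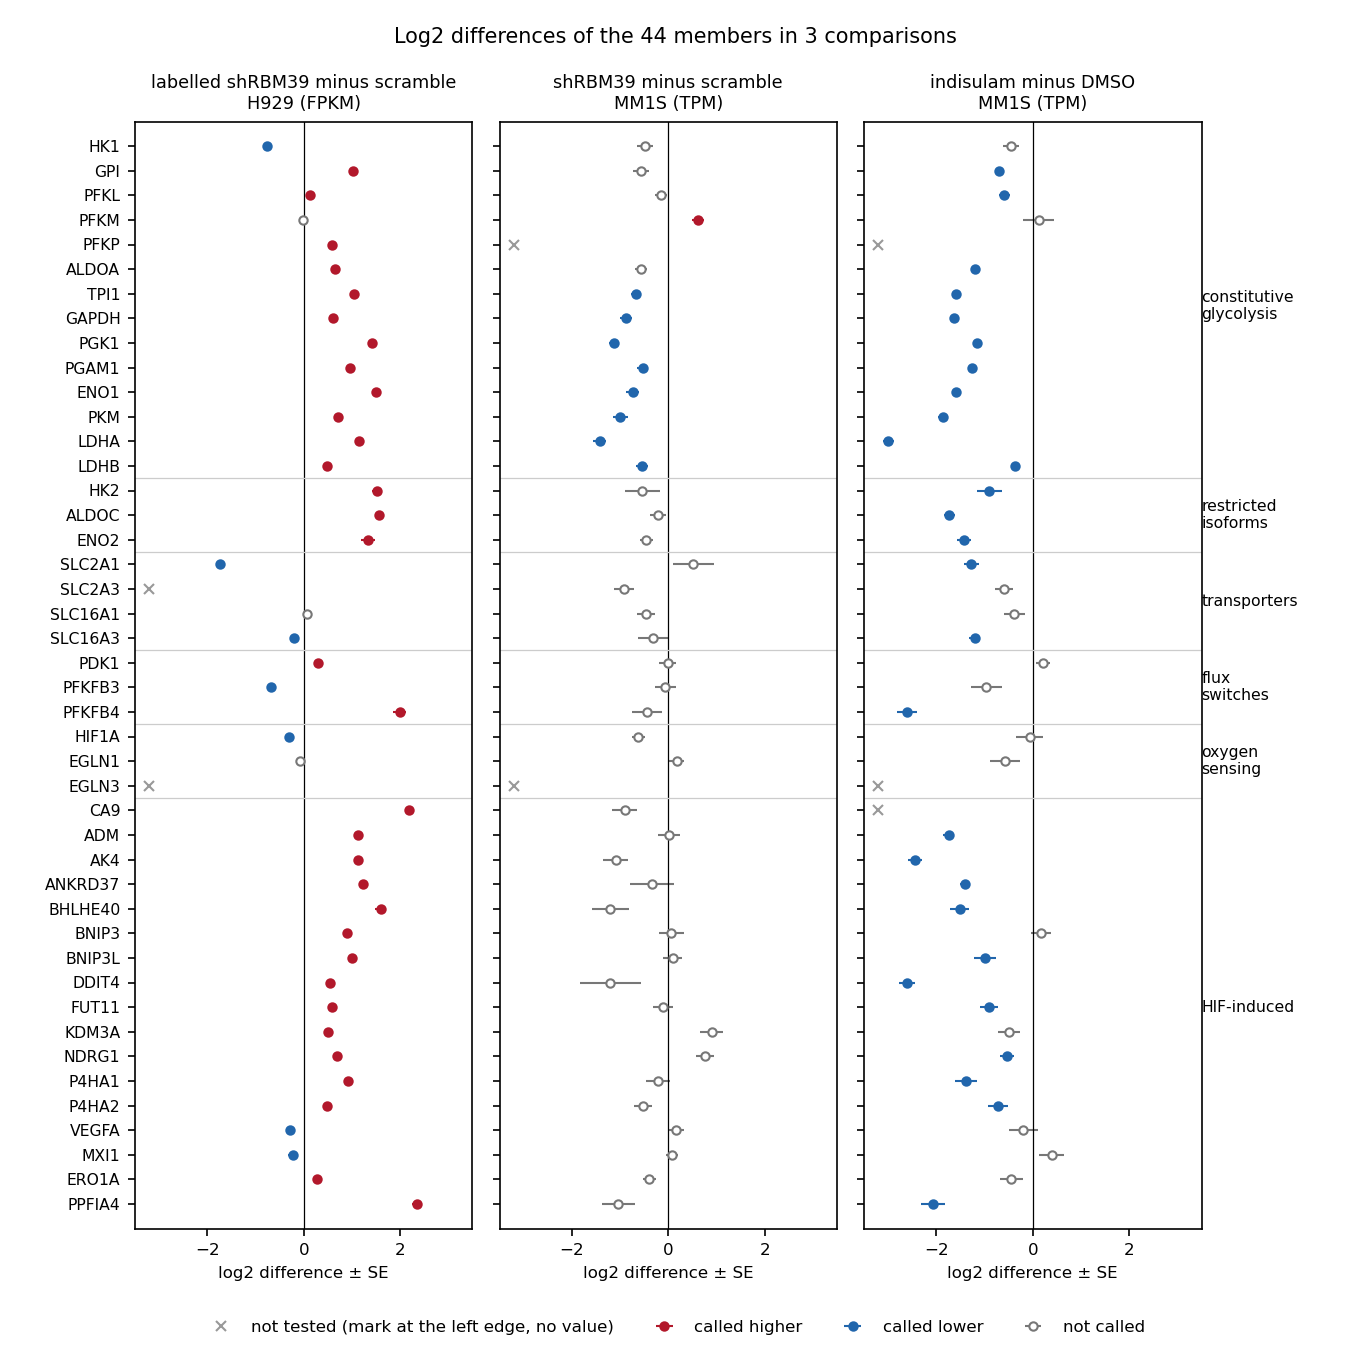
Log2 difference (log2 of value + 1, ± SE) of each of the 44 genes, ordered by role, in H929 (labelled shRBM39 minus labelled scramble, 3 libraries each), MM1S knockdown (shRBM39 minus scramble, 2 each) and MM1S indisulam (indisulam minus DMSO, 3 each); red and blue points passed the test, open points did not, and crosses at the left edge mark genes that were not tested. Most points lie right of 0 in H929 and left of 0 with indisulam, and with knockdown the points past the test are all constitutive enzymes.

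The first steps of glycolysis trap glucose as a phosphate and commit it to breakdown, and here the members differed in direction. Values in parentheses after a gene's levels are log2 differences of value + 1, with their SE. HK1, the hexokinase of most tissues, had 3.88, 4.33 and 4.45 FPKM in the libraries labelled shRBM39, against 8.30, 7.46 and 7.77 FPKM in those labelled scramble, and was lower without overlap (log2 difference -0.76 ± 0.068 SE, limma adjusted p = 4.01e-07). In MM1S its differences were -0.48 ± 0.17 with knockdown and -0.45 ± 0.16 with indisulam, and neither passed the test. GPI, which converts glucose 6-phosphate to fructose 6-phosphate, had 71.5, 75.9 and 82.1 FPKM in the libraries labelled shRBM39, against 35.9, 38.5 and 37.8 FPKM in those labelled scramble (1.01 ± 0.053). In the drug comparison GPI had 198, 186 and 197 TPM with indisulam, against 327, 306 and 308 TPM with DMSO (-0.69 ± 0.073). Its groups did not overlap in either, and in the MM1S knockdown the difference of -0.57 ± 0.16 did not pass (adjusted p = 0.0817). Phosphofructokinase, the main control point of the pathway, has 3 isoforms here. The liver-type PFKL had 61.1, 62.0 and 64.0 FPKM in the libraries labelled shRBM39, against 55.1, 56.8 and 59.6 FPKM in those labelled scramble (0.12 ± 0.044, adjusted p = 0.023), a call lost without scramble replicate 1 or 2 or labelled shRBM39 replicate 3 (adjusted p = 0.105, 0.0675 and 0.0758). The H929 columns differ in total, and whether this small difference holds on a common total was not tested. In MM1S PFKL had 137, 154 and 121 TPM with indisulam, against 197, 199 and 226 TPM with DMSO (-0.59 ± 0.11), and quantile normalization ended that call (adjusted p = 0.0636). The muscle-type PFKM was the 1 member higher with knockdown, with 117 and 103 TPM in shRBM39 libraries, against 69.9 and 72.5 TPM in scramble libraries (0.61 ± 0.13, adjusted p = 0.0462); in H929 and with indisulam its groups overlapped. The PFKM call was lost without shRBM39 replicate 1 (adjusted p = 0.0657), with no filter (0.131) and with limma without trend and robust (0.0786). The platelet-type PFKP was 212, 224 and 234 FPKM in the H929 libraries labelled shRBM39, against 143, 153 and 148 FPKM in those labelled scramble (0.59 ± 0.045), but under 1 TPM in every MM1S library. ALDOA, the main aldolase, had 8.76, 8.23 and 9.91 FPKM in the libraries labelled shRBM39, against 4.93, 5.34 and 5.79 FPKM in those labelled scramble (0.65 ± 0.076). In the drug comparison ALDOA had 522, 505 and 558 TPM with indisulam, against 1287, 1205 and 1168 TPM with DMSO (-1.21 ± 0.079). Knockdown gave a difference of -0.57 ± 0.13 for ALDOA, just short of the threshold (adjusted p = 0.0516). The low ALDOA level in the H929 table beside the higher TPM values in MM1S was not examined further, since the tables were made separately and the annotation is not given in the sources used here.

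From triose phosphate to pyruvate, every constitutive enzyme was called in all 3 comparisons. The knockdown calls were the least firm. Those of TPI1, GAPDH, PGAM1, ENO1 and PKM did not hold with limma without its trend and robust options (adjusted p = 0.053 to 0.091). That of PGAM1 was also lost under quantile normalization (0.0873) and without shRBM39 replicate 1 or 2 (0.0531 and 0.0619). TPI1, which interconverts the triose phosphates, had 458, 419.6 and 453 FPKM in the libraries labelled shRBM39, against 206, 219.6 and 217 FPKM in those labelled scramble (1.05 ± 0.045). Its knockdown values were 573 and 589 TPM in shRBM39 libraries, against 954 and 899 TPM in scramble libraries (-0.67 ± 0.099). Its drug values were 315, 350.3 and 378 TPM with indisulam, against 1098, 1063 and 975 TPM with DMSO (-1.59 ± 0.095). No library of one group reached into the other in any of these. GAPDH, which makes the first high-energy intermediate and is often used as a reference gene, had 2772, 2613 and 2805 FPKM in the libraries labelled shRBM39, against 1738, 1766 and 1847 FPKM in those labelled scramble (0.61 ± 0.043). In the MM1S knockdown GAPDH stood at 1971 and 1865 TPM in shRBM39 libraries, against 3906 and 3153 TPM in scramble libraries (-0.87 ± 0.13). In the drug comparison it stood at 1332, 1277 and 1435 TPM with indisulam, against 4235, 4191 and 4129 TPM with DMSO (-1.64 ± 0.075). GAPDH was thus lower in both MM1S comparisons without overlap; its H929 call did not hold with quantile normalization, which put the difference at 0.081 (adjusted p = 0.0505). PGK1, the first ATP-yielding enzyme and a textbook HIF target, had 341, 321 and 350.3 FPKM in the libraries labelled shRBM39, against 122, 127 and 129.9 FPKM in those labelled scramble (1.41 ± 0.044). Its knockdown levels were 207 and 199.6 TPM in shRBM39 libraries, against 444 and 441 TPM in scramble libraries (-1.12 ± 0.11). In the drug comparison PGK1 stood at 140.3, 142 and 128 TPM with indisulam, against 323, 294 and 295 TPM with DMSO (-1.15 ± 0.083), again without overlap. PGAM1, the phosphoglycerate mutase, was the least changed of this stretch with knockdown. Its H929 values were 179, 182 and 195 FPKM in the libraries labelled shRBM39, against 93.3, 96.3 and 92.9 FPKM in those labelled scramble (0.97 ± 0.043). Those in MM1S were 222 and 211 TPM in shRBM39 libraries, against 319.5 and 305 TPM in scramble libraries (-0.53 ± 0.11). The drug libraries gave 164, 172 and 166 TPM with indisulam, against 437, 389.8 and 386 TPM with DMSO (-1.26 ± 0.080).

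ENO1, the main enolase, had the largest H929 difference of the constitutive enzymes, with 1519, 1439.9 and 1616 FPKM in the libraries labelled shRBM39, against 519.8, 551 and 549 FPKM in those labelled scramble (1.495 ± 0.047). The knockdown values of ENO1 were 567 and 465 TPM in shRBM39 libraries, against 891 and 827 TPM in scramble libraries (-0.74 ± 0.13). Those of the drug comparison were 222, 249 and 245 TPM with indisulam, against 743, 704 and 707 TPM with DMSO (-1.59 ± 0.078). PKM, the pyruvate kinase of most proliferating cells, had 758, 749 and 819.7 FPKM in the libraries labelled shRBM39, against 446, 476 and 509 FPKM in those labelled scramble (0.70 ± 0.052). In the MM1S knockdown PKM stood at 356 and 305 TPM in shRBM39 libraries, against 739.7 and 587 TPM in scramble libraries (-0.997 ± 0.16). Its values in the drug comparison were 133, 159 and 127 TPM with indisulam, against 544, 480.3 and 498 TPM with DMSO (-1.85 ± 0.11). The mean with indisulam was 0.332 times that with DMSO for ENO1 and 0.276 times for PKM, and the mean with knockdown was 0.6 and 0.498 times that with scramble. The adjusted p-values of TPI1, GAPDH, PGK1, PGAM1, ENO1 and PKM were at most 7.46e-08 in H929, 0.0121 to 0.047 with knockdown and at most 0.000192 with indisulam. GAPDH, PGK1, PGAM1, TPI1, ENO1, LDHA and LDHB have processed pseudogenes of closely similar sequence, and how the authors divided reads between such copies is not given in the sources used here, so these levels are uncertain to that extent.

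Lactate dehydrogenase, the enzyme that forms lactate and regenerates NAD+, held the largest log2 difference of value + 1 with indisulam among the 41 tested members. By ratio of means AK4 (0.0368) and PFKFB4 (0.0719) fell further, both to under 1 TPM with indisulam. CA9 was at 0 TPM with indisulam and was not tested. LDHA had 99.5, 124 and 106 TPM with indisulam, against 991, 855 and 813 TPM with DMSO, and the mean with indisulam was 0.124 times that with DMSO (log2 difference -3.00 ± 0.12 SE, adjusted p = 3.19e-05). Every indisulam library lay far below every DMSO library. In the MM1S knockdown LDHA had 574 and 461 TPM in shRBM39 libraries, against 1411 and 1348 TPM in scramble libraries (-1.42 ± 0.14, adjusted p = 0.0121), the largest difference among the 9 called members of that comparison. In H929 LDHA had 831, 777 and 814 FPKM in the libraries labelled shRBM39, against 355, 344 and 387 FPKM in those labelled scramble (1.16 ± 0.048, adjusted p = 4.20e-10). LDHB, the isoform that favours pyruvate formation, moved in the same directions by less. It had 136, 126 and 120.0 FPKM in the libraries labelled shRBM39, against 92.4, 89.7 and 90.5 FPKM in those labelled scramble (0.48 ± 0.047). In the MM1S knockdown it had 774 and 663 TPM in shRBM39 libraries, against 1063 and 1024 TPM in scramble libraries (-0.54 ± 0.12). For LDHB the drug comparison gave 459.6, 461 and 482 TPM with indisulam, against 609, 589.6 and 614 TPM with DMSO (-0.37 ± 0.069), a call that median scaling and quantile normalization ended (adjusted p = 0.237 and 0.615). The LDHB call with knockdown did not hold with a pseudocount of 0.1 (adjusted p = 0.0514), under quantile normalization (0.0535), with limma without trend and robust (0.104) or without shRBM39 replicate 2 (0.0673).

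**Figure D2:**
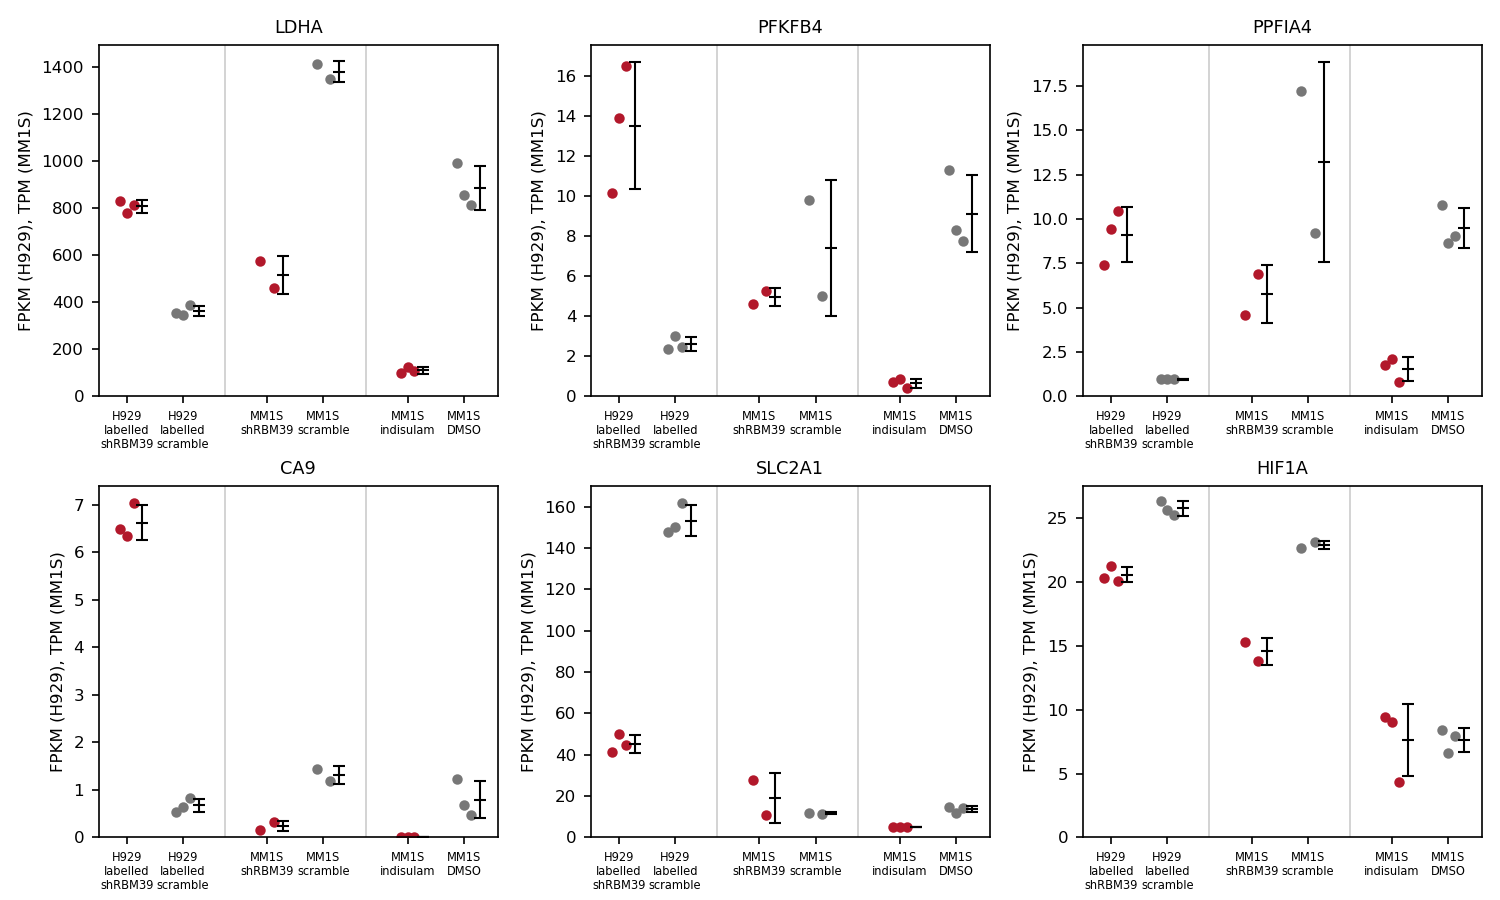
FPKM (H929) or TPM (MM1S) of LDHA, PFKFB4, PPFIA4, CA9, SLC2A1 and HIF1A in each library, with labelled shRBM39 left of scramble and indisulam left of DMSO; points are libraries and black bars the mean ± SD. LDHA with indisulam lies between 99.5 and 124 TPM, against 813 to 991 TPM with DMSO, while HIF1A overlaps in that comparison.

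The 3 isoforms with narrower expression were all higher in the H929 libraries labelled shRBM39 and all lower with indisulam, and none was called with knockdown. At an unadjusted p under 0.05, 1 was lower with knockdown, beside 4556 of all 14152 genes in either direction. HK2, the inducible hexokinase of many tumours, had 11.6, 16.1 and 12.2 FPKM in the libraries labelled shRBM39, against 3.58, 4.20 and 4.13 FPKM in those labelled scramble (1.51 ± 0.10). In MM1S HK2 had 6.27, 7.03 and 3.35 TPM with indisulam, against 12.1, 9.98 and 10.5 TPM with DMSO (-0.90 ± 0.26), with an adjusted p of 0.0357. The HK2 call was lost without any 1 of the DMSO replicates (0.0959 to 0.129) and without indisulam replicate 1 (0.0546). ALDOC, the brain-type aldolase, had 96.8, 89.5 and 102 FPKM in the libraries labelled shRBM39, against 27.6, 33.7 and 34.3 FPKM in those labelled scramble (1.57 ± 0.074). In MM1S, where it is a minor form, ALDOC had 15.0, 14.1 and 15.6 TPM with indisulam, against 55.1, 49.9 and 50.4 TPM with DMSO (-1.73 ± 0.11). ENO2, the neuronal enolase, had 5.82, 6.69 and 7.40 FPKM in the libraries labelled shRBM39, against 1.30, 2.41 and 2.47 FPKM in those labelled scramble (1.34 ± 0.14). For ENO2 the drug comparison gave 60.7, 69.9 and 46.3 TPM with indisulam, against 162, 152 and 159 TPM with DMSO (-1.43 ± 0.15). The groups of ALDOC and ENO2 were separated in both comparisons by more than the spread within them.

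At the settings used here the carriers held no higher call in any of the 3 comparisons. SLC2A1 (GLUT1), the main glucose importer of most cells and a known HIF target, had 41.2, 49.98 and 44.7 FPKM in the libraries labelled shRBM39, against 148, 149.99 and 162 FPKM in those labelled scramble (-1.74 ± 0.062, adjusted p = 1.48e-10), the largest lower call of the 42 tested in H929. In MM1S it had 5.08, 5.20 and 4.88 TPM with indisulam, against 14.7, 11.9 and 14.3 TPM with DMSO (-1.27 ± 0.16, adjusted p = 0.00141). With knockdown the SLC2A1 values overlapped, at 27.6 and 10.6 TPM in shRBM39 libraries, against 12.0 and 11.4 TPM in scramble libraries, and leaving out shRBM39 replicate 2 put it among the higher calls (1.17, adjusted p = 0.0221). SLC16A3 (MCT4), a lactate exporter, had 15.9, 15.2 and 15.3 TPM with indisulam, against 39.1, 34.3 and 37.7 TPM with DMSO (-1.20 ± 0.12). In H929 it had 12.4, 13.8 and 14.7 FPKM in the libraries labelled shRBM39, against 15.9, 15.3 and 15.8 FPKM in those labelled scramble (-0.19 ± 0.064), an adjusted p of 0.0152 that median scaling (adjusted p = 0.762) and leaving out labelled shRBM39 replicate 1 (0.0542) ended. SLC16A1 (MCT1), which carries lactate both ways, was called in no comparison, with differences of 0.07 ± 0.062, -0.47 ± 0.19 and -0.38 ± 0.23 in H929, with knockdown and with indisulam. This depended on the scaling. Median scaling and quantile normalization put SLC16A1 among the higher calls in H929 (0.24 and 0.25, limma adjusted p = 0.0032 and 0.0028). They put it among the lower calls with indisulam (-0.37 and -0.35, limma adjusted p = 0.0256 and 0.0278). The high-affinity glucose carrier SLC2A3 (GLUT3) had 2.77 and 3.27 TPM in shRBM39 libraries, against 7.47 and 5.79 TPM in scramble libraries (-0.92 ± 0.22, adjusted p = 0.0561). It had 3.13, 2.76 and 2.18 TPM with indisulam, against 4.21, 4.07 and 5.36 TPM with DMSO (-0.59 ± 0.19, adjusted p = 0.0507). Both pairs of groups were separate but just short of the threshold. In H929 it was below 1 FPKM in every library.

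PFKFB3 and PFKFB4 make and break fructose 2,6-bisphosphate, the strongest activator of phosphofructokinase. PDK1 limits the use of pyruvate inside the mitochondrion by inhibiting pyruvate dehydrogenase. PFKFB4 had 10.2, 13.9 and 16.5 FPKM in the libraries labelled shRBM39, against 2.35, 3.02 and 2.49 FPKM in those labelled scramble (1.99 ± 0.14, adjusted p = 3.92e-07). In MM1S PFKFB4 had 0.700, 0.850 and 0.420 TPM with indisulam, against 11.3, 8.30 and 7.77 TPM with DMSO (-2.60 ± 0.20, adjusted p = 0.000284), a ratio of means of 0.0719; the log2 difference of so low a gene is understated by the added 1. Both pairs of groups were separate, in opposite directions, and in the drug comparison PFKFB4 entered the test only through its DMSO values. With knockdown its values overlapped, at 4.64 and 5.28 TPM in shRBM39 libraries, against 9.84 and 5.00 TPM in scramble libraries. PFKFB3 had 6.39, 7.42 and 7.06 FPKM in the libraries labelled shRBM39, against 10.9, 12.4 and 11.8 FPKM in those labelled scramble (-0.67 ± 0.068), lower in the libraries in which PFKFB4 was higher. In the drug comparison PFKFB3 had 4.03, 3.65 and 1.25 TPM with indisulam, against 7.00, 5.39 and 6.68 TPM with DMSO (-0.97 ± 0.32), which did not pass (adjusted p = 0.0601). PDK1 had 146, 150.1 and 151 FPKM in the libraries labelled shRBM39, against 123, 124 and 117 FPKM in those labelled scramble (0.29 ± 0.040), a rise smaller than that of most members. Its values in the drug comparison, 80.5, 80.8 and 56.4 TPM with indisulam, against 63.1, 60.6 and 60.9 TPM with DMSO, overlapped only through replicate 3, and without that library PDK1 was higher (0.39, adjusted p = 0.000688).

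Of the oxygen-sensing genes, only HIF1A was called, and in H929 alone. HIF1A, the alpha subunit, had 20.3, 21.2 and 20.1 FPKM in the libraries labelled shRBM39, against 26.4, 25.6 and 25.2 FPKM in those labelled scramble (-0.31 ± 0.048, adjusted p = 6.27e-05), lower in the libraries in which most of the other members were higher. In the MM1S knockdown HIF1A had 15.3 and 13.8 TPM in shRBM39 libraries, against 22.6 and 23.1 TPM in scramble libraries (-0.62 ± 0.14, adjusted p = 0.0534), separate but short of the threshold, which it passed with a filter at 5 TPM (adjusted p = 0.0403). The drug comparison gave 9.42, 9.01 and 4.35 TPM with indisulam, against 8.39, 6.6 and 7.96 TPM with DMSO (-0.07 ± 0.28, adjusted p = 0.881), and the groups overlapped. These are mRNA levels, and HIF1A is controlled mainly at the level of its protein, which was not measured here. EGLN1 (PHD2), the main prolyl hydroxylase that marks HIF1A for destruction, had 16.3, 20.8 and 18.3 FPKM in the libraries labelled shRBM39, against 18.7, 18.3 and 21.2 FPKM in those labelled scramble. In MM1S EGLN1 had 16.9 and 14.0 TPM in shRBM39 libraries, against 14.1 and 13.0 TPM in scramble libraries, and 9.69, 6.67 and 4.08 TPM with indisulam, against 13.0, 7.85 and 10.1 TPM with DMSO. All 3 pairs of groups overlapped. EGLN3 (PHD3), a hydroxylase that HIF itself induces, had 0.513, 1.23 and 0.609 FPKM in the libraries labelled shRBM39, against 0.235, 0.185 and 0.351 FPKM in those labelled scramble, separate groups near the lower limit of the table. In MM1S it was 0.230 and 0.260 TPM in shRBM39 libraries, against 0.480 and 0.140 TPM in scramble libraries, and 0.0400, 0.02 and 0.02 TPM with indisulam, against 0.0900, 0.140 and 0 TPM with DMSO.

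Of the 17 further HIF-induced genes, 15 were higher and 2 lower in the H929 libraries labelled shRBM39. CA9 (carbonic anhydrase IX), a membrane enzyme that acidifies the surroundings and is the most widely used hypoxia marker, had 6.498, 6.35 and 7.04 FPKM in the libraries labelled shRBM39, against 0.543, 0.647 and 0.826 FPKM in those labelled scramble (2.19 ± 0.078, adjusted p = 1.21e-10). In the MM1S knockdown CA9 had 0.160 and 0.320 TPM in shRBM39 libraries, against 1.45 and 1.18 TPM in scramble libraries, separate groups with an adjusted p of 0.0855. With indisulam it was listed at 0 in all 3 libraries, against 1.22, 0.690 and 0.480 TPM with DMSO, and was not tested. PPFIA4, a liprin scaffold protein, had the largest log2 difference of value + 1 among the 42 tested members in H929. Its levels were 7.42, 9.46 and 10.4 FPKM in the libraries labelled shRBM39, against 1.01, 0.971 and 0.954 FPKM in those labelled scramble (2.34 ± 0.097, adjusted p = 4.20e-10). By ratio of means CA9 stood above PPFIA4 in H929 (9.86, against 9.32). For PPFIA4 the drug comparison gave 1.75, 2.12 and 0.810 TPM with indisulam, against 10.8, 8.68 and 9.02 TPM with DMSO (-2.07 ± 0.24, adjusted p = 0.00117). Its knockdown values were 4.60 and 6.93 TPM in shRBM39 libraries, against 17.2 and 9.23 TPM in scramble libraries (adjusted p = 0.108). Both genes were thus higher in the H929 libraries labelled shRBM39 and below their controls in every treated MM1S library. PPFIA4 passed the test in 2 of 3 comparisons. CA9 passed it in H929 alone, where it entered the test only through the group in which it was high. The CA9 call is therefore not independent of the difference. Nor are the calls of PPFIA4, whose lower group alone would not have met the filter in H929 or with indisulam. BHLHE40 (DEC1), a transcriptional repressor, had 48.6, 66.7 and 57.0 FPKM in the libraries labelled shRBM39, against 15.9, 18.6 and 20.3 FPKM in those labelled scramble (1.60 ± 0.12). In MM1S the BHLHE40 values were 3.40, 3.34 and 2.25 TPM with indisulam, against 11.6, 9.43 and 10.0 TPM with DMSO (-1.52 ± 0.19), again with no overlap. AK4, a mitochondrial adenylate kinase, had 1.42, 1.64 and 1.79 FPKM in the libraries labelled shRBM39, against 0.189, 0.273 and 0.158 FPKM in those labelled scramble (1.12 ± 0.079). AK4 was below 1 TPM in every indisulam library, at 0.210, 0.230 and 0.170 TPM with indisulam, against 5.60, 5.88 and 5.11 TPM with DMSO (-2.44 ± 0.15). In both comparisons AK4 likewise entered the test only through the group in which it was high.

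Of the remaining HIF-induced genes, those that follow here were higher in H929 and lower with indisulam. ADM (adrenomedullin), a secreted vasodilator peptide, had 121, 127 and 122 FPKM in the libraries labelled shRBM39, against 54.4, 59.5 and 54.3 FPKM in those labelled scramble (1.13 ± 0.046). In MM1S ADM had 73.9, 95 and 79.8 TPM with indisulam, against 295, 269 and 274 TPM with DMSO (-1.75 ± 0.11). ANKRD37, an ankyrin repeat protein, had 5.25, 5.33 and 5.03 FPKM in the libraries labelled shRBM39, against 1.48, 1.48 and 2.01 FPKM in those labelled scramble (1.23 ± 0.083). In MM1S it had 34.8, 40.4 and 34.4 TPM with indisulam, against 96.2, 103 and 95.6 TPM with DMSO (-1.40 ± 0.10). DDIT4 (REDD1), a stress-induced inhibitor of mTORC1, was among the genes that moved most with the drug. It had 393, 522 and 445 FPKM in the libraries labelled shRBM39, against 301, 304 and 319 FPKM in those labelled scramble (0.55 ± 0.083). The drug comparison gave 13.1, 9.28 and 8.44 TPM with indisulam, against 64.2, 69.7 and 66.4 TPM with DMSO (-2.61 ± 0.17). P4HA1, the catalytic subunit of collagen prolyl 4-hydroxylase, had 67.4, 76.7 and 82.7 FPKM in the libraries labelled shRBM39, against 36.9, 38.1 and 43.3 FPKM in those labelled scramble (0.92 ± 0.073). In MM1S it had 18.1, 13.5 and 9.66 TPM with indisulam, against 40.1, 36.9 and 32.6 TPM with DMSO (-1.38 ± 0.22). Its relative P4HA2 had 21.5, 23.3 and 24.5 FPKM in the libraries labelled shRBM39, against 15.9, 15.3 and 17.7 FPKM in those labelled scramble (0.48 ± 0.065). The drug comparison gave 2.85, 1.87 and 1.61 TPM with indisulam, against 3.94, 3.59 and 4.61 TPM with DMSO (-0.71 ± 0.20). The drug call of P4HA2 was lost without any 1 of the DMSO replicates (adjusted p = 0.0912 to 0.144) or without indisulam replicate 2 (0.106).

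BNIP3L (NIX), a mitophagy receptor, had 49.3, 51.7 and 54.2 FPKM in the libraries labelled shRBM39, against 24.6, 24.7 and 27.2 FPKM in those labelled scramble (0.99 ± 0.054). In MM1S it had 16.8, 12.4 and 8.83 TPM with indisulam, against 27.7, 24.5 and 24.4 TPM with DMSO (-0.997 ± 0.22). NDRG1, a cytoplasmic stress protein, had 84.9, 108 and 109 FPKM in the libraries labelled shRBM39, against 58.6, 60.5 and 65.7 FPKM in those labelled scramble (0.69 ± 0.087). The drug comparison gave 70.4, 64.8 and 48.0 TPM with indisulam, against 91.9, 83.6 and 87.5 TPM with DMSO (-0.53 ± 0.15). FUT11, a fucosyltransferase family member, had 7.18, 9.05 and 8.56 FPKM in the libraries labelled shRBM39, against 5.24, 4.85 and 5.24 FPKM in those labelled scramble (0.60 ± 0.078). In MM1S it had 4.97, 5.57 and 3.77 TPM with indisulam, against 10.8, 8.94 and 9.47 TPM with DMSO (-0.91 ± 0.19). All 3 were higher in H929 and lower with indisulam, without overlap. The drug calls of BNIP3L and NDRG1 did not hold without DMSO replicate 1, 2 or 3 (adjusted p = 0.0582 to 0.0711 for BNIP3L and 0.0944 to 0.123 for NDRG1). That of FUT11 did not hold without DMSO replicate 1 or 3 (0.0616 and 0.0541), nor that of NDRG1 without indisulam replicate 2 (0.0639). With knockdown NDRG1 pointed the other way at 141 and 119.7 TPM in shRBM39 libraries, against 88.2 and 65.1 TPM in scramble libraries (adjusted p = 0.0621). So did the histone demethylase KDM3A at 69.8 and 44.3 TPM in shRBM39 libraries, against 31.6 and 27.2 TPM in scramble libraries (adjusted p = 0.0723). Both KDM3A and ERO1A, an endoplasmic reticulum oxidase that forms disulfide bonds, were higher in H929 (0.50 ± 0.079 and 0.28 ± 0.054), as was the mitophagy receptor BNIP3 (0.90 ± 0.050). VEGFA, the main angiogenic growth factor, and MXI1, a MYC antagonist, went against the list in H929. VEGFA had 28.1, 32.2 and 30.9 FPKM in the libraries labelled shRBM39, against 36.1, 36.1 and 39.3 FPKM in those labelled scramble (-0.28 ± 0.057), a call that median scaling ended (adjusted p = 0.109). MXI1 had 9.21, 12.4 and 12.0 FPKM in the libraries labelled shRBM39, against 13.9, 12.7 and 13.0 FPKM in those labelled scramble (-0.23 ± 0.089), with an adjusted p of 0.0321. This call ended on leaving out scramble replicate 1 or 3 or labelled shRBM39 replicate 1 (0.104, 0.0585 and 0.118). It also ended with no filter (0.112) and with limma without trend and robust (0.0516). Median scaling and quantile normalization put the MXI1 difference at -0.063 and -0.061 (adjusted p = 0.524 and 0.562). In MM1S VEGFA was called in neither comparison, and MXI1 was higher with indisulam once replicate 3 was left out (0.70, adjusted p = 0.000128).

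The design of the set also asks whether the genes that mark hypoxia moved apart from the enzymes that cells use at any oxygen level. For this the 14 constitutive enzymes were set against 19 hypoxia-specific genes, the 17 HIF-induced genes with EGLN1 and EGLN3. In H929 both moved the same way: 12 of 14 constitutive and 15 of 18 tested hypoxia-specific genes were higher (24.1% of all genes). Another 1 and 2 were lower (48.1% of all genes), and the medians were 0.67 and 0.79. With knockdown in MM1S, 8 of 13 tested constitutive enzymes were lower (6.35% of all genes) and 1 higher (3.97%). Of the hypoxia-specific genes, 0 of 18 passed the limma test, where 10.3% of all genes passed in either direction. At a share that low, a count of 0 does not set the 18 apart from all genes. The medians were -0.57 and -0.16. At an unadjusted p under 0.05, 6 of the 18 were lower and 2 higher, beside 4556 of all 14152 genes in either direction. The count of 0 of 18 held at the settings used here but not at all others. AK4 was lower and NDRG1 higher with a filter at 5 TPM (adjusted p = 0.0398 and 0.0447), and NDRG1 was higher under median scaling (0.0453). Quantile normalization put KDM3A and NDRG1 among the higher calls (0.0477 and 0.0430), and limma without trend and robust put CA9 among the lower (0.0485). Hypoxia-specific genes also entered the calls when an shRBM39 library was left out. These were DDIT4 (-2.16) without shRBM39 replicate 1, and AK4 (-1.39) and KDM3A (1.22) without shRBM39 replicate 2. The shRBM39 and scramble libraries did not overlap for all 13 constitutive enzymes (12 lower and 1 higher), against 9 of 18 hypoxia-specific genes (6 lower and 3 higher). Over all genes 31.9% were lower and 30.5% higher without overlap. The median SE of the log2 differences was 0.128 for the constitutive enzymes and 0.230 for the hypoxia-specific genes, so the threshold was harder to reach for the hypoxia-specific genes, and the difference between the lists was not tested. With indisulam both were lower again, with 11 of 13 constitutive enzymes and 11 of 17 hypoxia-specific genes called lower (21.5% of all genes) and medians of -1.21 and -0.91. Without overlap, 12 of 13 and 13 of 17 were lower and 0 of either higher (32.3% and 14.9% of all genes). The knockdown counts hung on single libraries: without scramble replicate 1, or without scramble replicate 2, no member passed the test, and of all 14152 genes 0 were called (2444 and 2565 at an unadjusted p under 0.05). Without shRBM39 replicate 1 and without shRBM39 replicate 2, 9 and 7 members were lower and 0 and 3 higher. The hypoxia-specific median under knockdown was -0.08 and -0.32 without scramble replicates 1 and 2, and -0.27 and -0.01 without shRBM39 replicates 1 and 2.

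Summed per library, the same contrast can be read as a share of all measured transcript abundance. The 14 constitutive enzymes took 1.75 ± 0.062% of the column total in the H929 libraries labelled shRBM39, against 1.06 ± 0.034% in those labelled scramble (SD, n = 3 each). In MM1S they took 0.609 ± 0.042% with knockdown, against 1.06 ± 0.097% with scramble (SD, n = 2 each), and 0.386 ± 0.010% with indisulam, against 1.04 ± 0.035% with DMSO (SD, n = 3 each). The 19 hypoxia-specific genes took 0.262 ± 0.032% in the H929 libraries labelled shRBM39, against 0.180 ± 0.0063% in those labelled scramble. Their share in MM1S was 0.0585 ± 0.011% with knockdown, against 0.0599 ± 0.010% with scramble, and 0.0331 ± 0.0062% with indisulam, against 0.0749 ± 0.0029% with DMSO. No library of a group overlapped with its counterpart except for the hypoxia-specific genes in the MM1S knockdown. A few abundant genes set these sums, GAPDH and ENO1 foremost in H929, and shares from different tables are not compared.

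**Figure D3:**
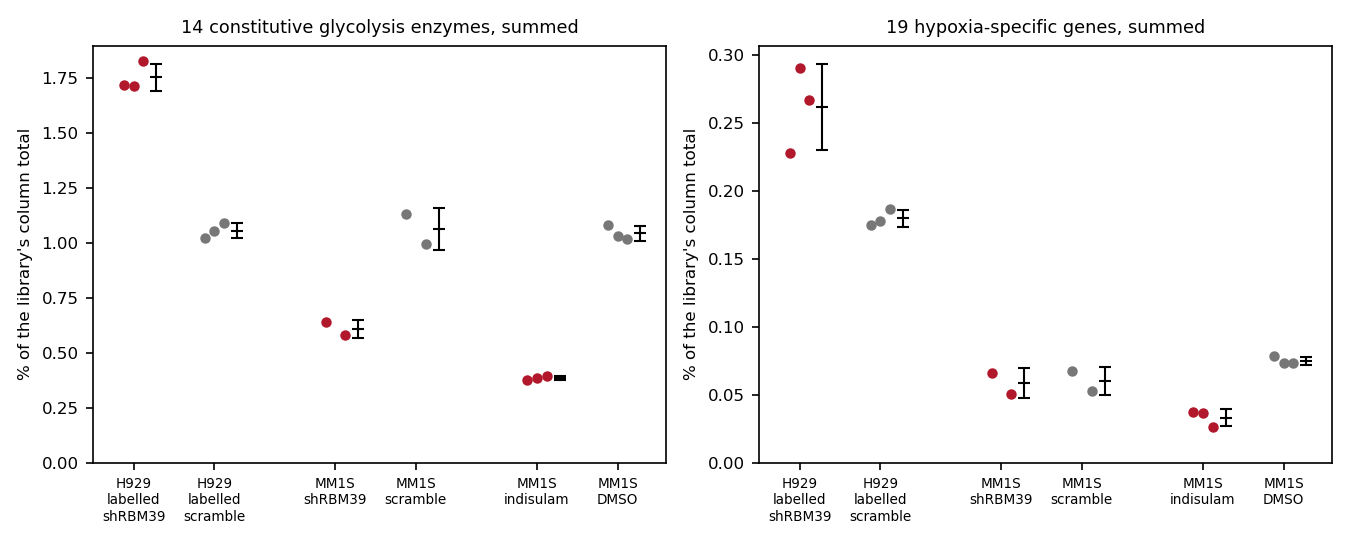
Percent of the library's column total (FPKM in H929, TPM in MM1S) held by the 14 constitutive enzymes and by the 19 hypoxia-specific genes; points are libraries, bars the mean ± SD, and each treated or shRBM39 group stands left of its control. The constitutive share with indisulam (0.386%) lies below that with DMSO (1.04%), and the hypoxia-specific share overlaps in the MM1S knockdown.

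Within isoform families the balance differed between groups in some and overlapped in others. LDHA made up 86.4 ± 0.66% of LDHA plus LDHB in the H929 libraries labelled shRBM39, against 79.9 ± 0.99% in those labelled scramble (SD, n = 3 each). In MM1S it was 41.8 ± 1.1% with knockdown, against 56.9 ± 0.15% with scramble (SD, n = 2 each), and 19.04 ± 1.9% with indisulam, against 59.4 ± 2.5% with DMSO (SD, n = 3 each). The lactate dehydrogenase mRNA of MM1S was thus mostly LDHB after either treatment and mostly LDHA in its controls. The enzyme itself was not measured. PFKFB4 made up 65.6 ± 4.3% of PFKFB3 plus PFKFB4 in the H929 libraries labelled shRBM39, against 18.3 ± 1.2% in those labelled scramble, and 19.6 ± 5.2% with indisulam, against 58.7 ± 4.3% with DMSO. HK2 made up 75.7 ± 2.8% of HK1 plus HK2 in the H929 libraries labelled shRBM39, against 33.6 ± 3.1% in those labelled scramble, and 52.9 ± 6.9% with indisulam, against 61.5 ± 2.6% with DMSO. With knockdown the PFKFB4 share overlapped (34.7 to 38.1%, against 31.4 to 56.8% with scramble), as did the HK2 share (45.0 to 68.3%, against 56.6 to 59.2% with scramble). Some families were ordered differently in the tables of the 2 lines: PFKP made up 75.1 ± 0.51% of phosphofructokinase in the H929 libraries labelled shRBM39 and 68.3 ± 0.59% in those labelled scramble, but at most 0.197% in any MM1S library. ALDOC was 91.5 ± 0.30% and 85.6 ± 0.72% of the ALDOA and ALDOC sum in the same H929 groups, but at most 4.58% in MM1S. These H929 shares rest on the low ALDOA level of that table, which was not examined. The order of the aldolases in H929 is therefore uncertain. In H929 the ENO2 share of the enolases overlapped (0.382 to 0.463% in the libraries labelled shRBM39, against 0.249% to 0.449% in those labelled scramble). So did the BNIP3 share of BNIP3 plus BNIP3L (56.6 to 58.4% in the libraries labelled shRBM39, against 57.9 to 60.7% in those labelled scramble). SLC16A3 was 62.5 ± 7.0% of the lactate carrier pair with indisulam, against 75.0 ± 0.88% with DMSO.

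**Figure D4:**
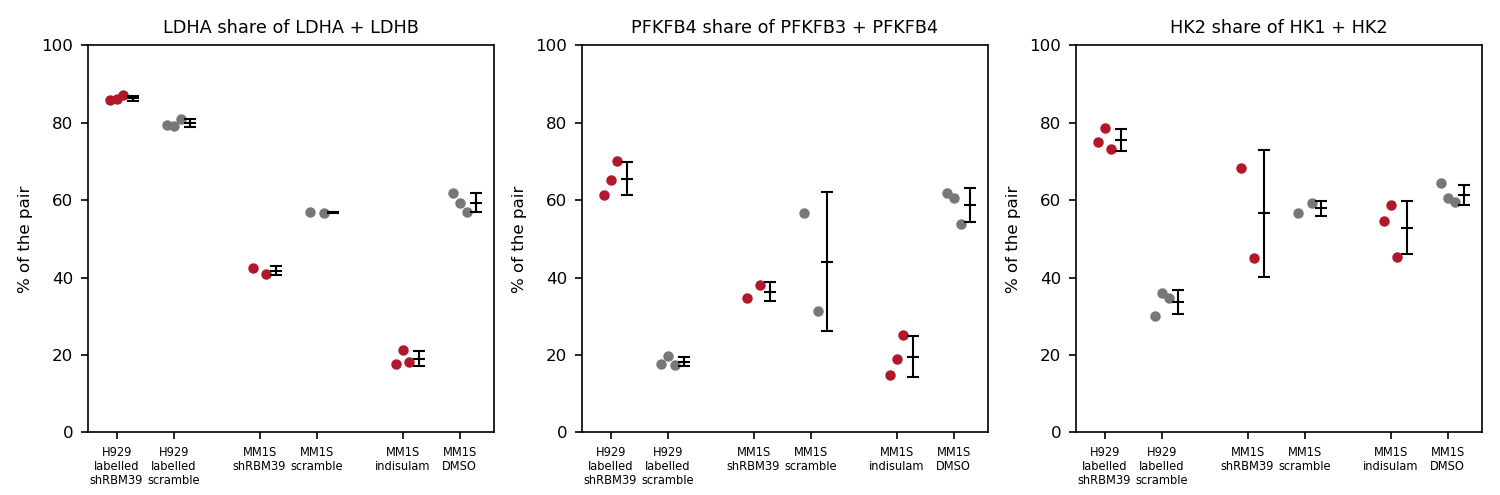
Percent of the summed level of each isoform pair held by LDHA, PFKFB4 and HK2 in each library, with labelled shRBM39 left of scramble and indisulam left of DMSO; points are libraries and bars the mean ± SD. The LDHA share is 19.04% with indisulam, against 59.4% with DMSO, and the PFKFB4 share is 65.6% in the H929 libraries labelled shRBM39, against 18.3% in those labelled scramble.

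RIP asked which of these transcripts came down with RBM39 protein in MM1S; with 1 library per antibody there is no replicate check and no test. Of the 44 genes, 39 reached 1 FPKM in either library; PFKP, EGLN3, CA9, BNIP3 and PPFIA4 did not. A log2 ratio of RBM39 to IgG above 1 was found for 13 of the 39 (22.7% of all 10966 genes) and below -1 for 7 (23.9% of all genes), with a median of 0.27 over the members and 0.02 over all genes. The highest was HK1, with 17.4 FPKM in the RBM39 library and 1.57 FPKM in the IgG library (log2 ratio 2.84). DDIT4 followed with 22.0 FPKM in the RBM39 library and 2.65 FPKM in the IgG library (2.66), and EGLN1 with 51.4 FPKM for RBM39 and 7.74 FPKM for IgG (2.58). PFKFB3 had 27.3 FPKM for RBM39 and 3.73 FPKM for IgG (2.58), and ALDOC had 11.8 FPKM for RBM39 and 1.55 FPKM for IgG (2.32). These 5 come from 5 of the 6 roles. At the low end ANKRD37 had 10.47 FPKM in the RBM39 library and 48.5 FPKM in the IgG library (-2.11), and GAPDH had 174 FPKM for RBM39 and 729 FPKM for IgG (-2.06). PDK1 had 12.0 FPKM for RBM39 and 43.6 FPKM for IgG (-1.78), HK2 had 11.1 FPKM for RBM39 and 35.2 FPKM for IgG (-1.58), and KDM3A had 17.2 FPKM for RBM39 and 37.4 FPKM for IgG (-1.08). LDHA had 695 FPKM in the RBM39 library and 361 FPKM in the IgG library (0.95), and HIF1A had 14.5 FPKM for RBM39 and 8.39 FPKM for IgG (0.73). The constitutive enzymes had a median of 0.27 over 13 genes and the hypoxia-specific genes 0.06 over 15. RBM39 mRNA itself had 62.1 FPKM in the RBM39 library and 127 FPKM in the IgG library (-1.01).

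**Figure D5:**
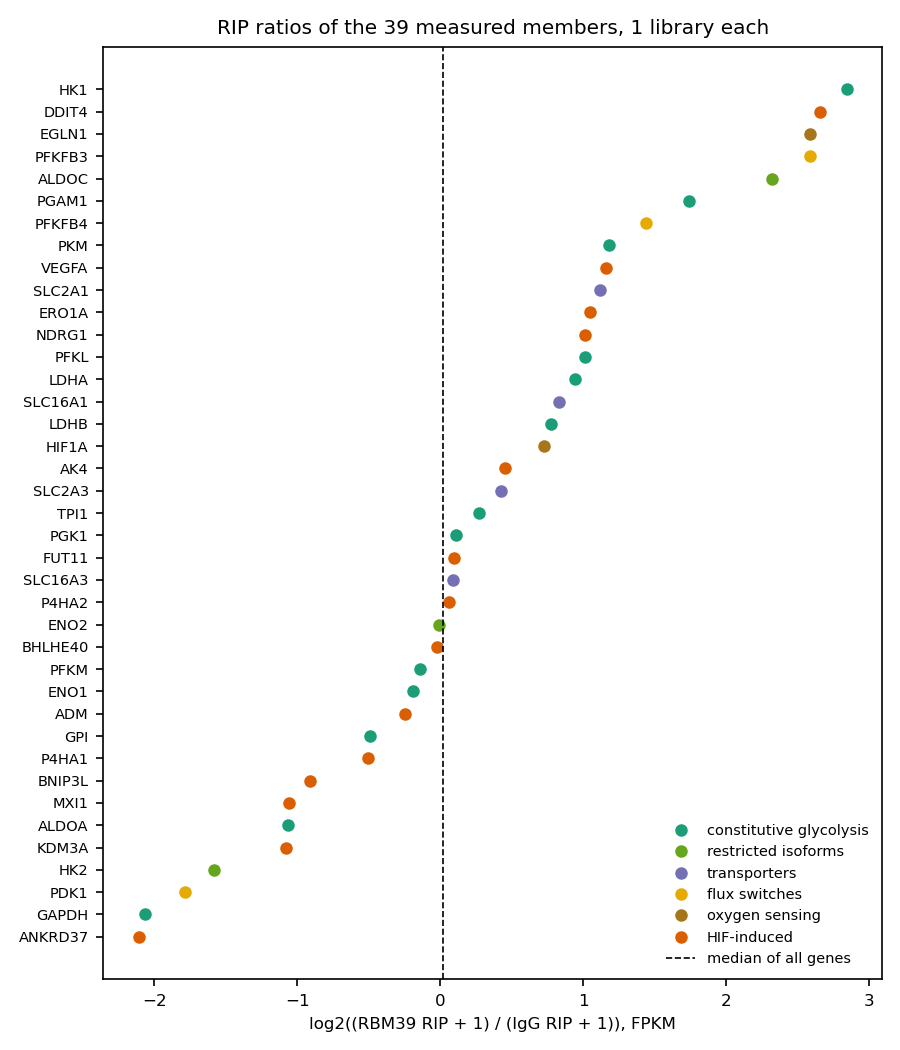
Log2 ratio of FPKM + 1 in the RBM39 immunoprecipitation to that in the IgG control for the 39 genes that reached 1 FPKM, 1 library each. HK1 stands highest at 2.84 and ANKRD37 lowest at -2.11, and the members' median is 0.27 beside 0.02 for all genes.

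Genes outside the 44 but in the same or neighbouring pathways, taken from 6 lists, are given by their counts, to be read against the all-gene shares above (24.1% higher and 48.1% lower in H929, 3.97% and 6.35% with knockdown, 8.47% and 21.5% with indisulam). Their counts at an unadjusted p under 0.05 with knockdown stand beside 4556 of all 14152 genes in either direction. Of 17 tested further HIF targets, 13 were higher and 2 lower in H929, 0 of 18 were called with knockdown (4 lower and 1 higher at an unadjusted p under 0.05), and 4 of 18 were lower and 0 higher with indisulam. The indisulam count (22.2%) is near the all-gene share of 21.5%. In H929 these included the iron importer TFRC (1.04 ± 0.062), the collagen lysyl hydroxylase PLOD2 (0.85 ± 0.068) and the zinc finger protein ZNF395 (0.80 ± 0.095), with STC2 (-0.46 ± 0.074) and RIOK3 (-0.31 ± 0.053) the 2 lower ones. With indisulam they were PLOD2 (-1.47 ± 0.23), the lipid droplet protein HILPDA (-1.42 ± 0.24), the collagen lysyl hydroxylase PLOD1 (-1.37 ± 0.13) and the glycogen branching enzyme GBE1 (-0.77 ± 0.17). Of the HIF machinery, 8 of 11 genes were lower and 1 higher in H929 (72.7% lower, against 48.1% of all genes). Among them were the alternative alpha subunit EPAS1 (-1.35 ± 0.070), ARNT (-0.36 ± 0.049) and the ubiquitin ligase subunit CUL2 (-0.30 ± 0.062), and the HIF inhibitor CITED2 was the higher one (0.30 ± 0.052). CITED2 was the 1 machinery gene called with knockdown (-0.74 ± 0.13), and with indisulam RBX1 (-0.82 ± 0.096) and ELOC (-0.78 ± 0.11), subunits of the VHL ligase, were lower while EPAS1 was higher (0.69 ± 0.21). Less used glycolysis genes did not follow the 14 constitutive enzymes in H929, with 1 of 8 higher and 5 lower (62.5% lower, against 48.1% of all genes). The higher one was the phosphoglucomutase PGM1 (0.43 ± 0.051), which was lower with indisulam (-0.93 ± 0.12), as was the muscle enolase ENO3 in H929 (-0.65 ± 0.080) and with indisulam (-0.85 ± 0.17). With indisulam 2 of 10 were higher and 3 lower, with PFKFB2, another enzyme that makes and breaks fructose 2,6-bisphosphate, higher (1.02 ± 0.28). With knockdown 0 of 10 were called (2 lower and 0 higher at an unadjusted p under 0.05).

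The routes that carry carbon away from glycolysis were mixed. For entry of pyruvate into the mitochondrion and its use, 5 of 13 genes were higher and 4 lower in H929 (38.5% and 30.8%, against 24.1% and 48.1% of all genes). The pyruvate carrier MPC2 (0.80 ± 0.053) and pyruvate carboxylase PC (0.74 ± 0.082) were higher, as was PDHB (0.49 ± 0.064), and the phosphatase PDP1 (-1.16 ± 0.089), PDHX (-0.66 ± 0.055) and DLD (-0.58 ± 0.063) were lower. MPC2 was lower with knockdown (-1.19 ± 0.25), together with the pyruvate dehydrogenase subunit DLAT (-0.82 ± 0.13), and 0 of 13 were higher. With indisulam MPC2 (-0.94 ± 0.098), MPC1 (-0.77 ± 0.14) and PDHB (-0.63 ± 0.12) were lower and the phosphatase PDP2 higher (1.07 ± 0.28). Of the pentose phosphate pathway, which makes ribose and NADPH, 6 of 9 genes were lower and 0 higher with indisulam (66.7% lower, against 21.5% of all genes), PRPS2 (-1.10 ± 0.21) and TALDO1 (-0.79 ± 0.11) among them. With knockdown 2 of 9 were lower, PRPS2 (-1.22 ± 0.14) and RPE (-0.95 ± 0.19), and in H929 3 of 10 were higher and 3 lower, against 24.1% and 48.1% of all genes. TXNIP, a glucose-induced inhibitor of glucose uptake, was lower with indisulam (-1.93 ± 0.20), as was the transcription factor MYC (-0.72 ± 0.11), an activator of LDHA and other glycolysis genes, the 2 called of 4 glucose-sensing genes tested. In H929 the glucose-sensing MLX was higher (0.55 ± 0.055), TXNIP was higher (0.18 ± 0.074) and MLXIP (-0.65 ± 0.054) and ARRDC4 (-0.44 ± 0.090) lower, and with knockdown 0 of 5 were called (1 lower and 0 higher at an unadjusted p under 0.05). The TXNIP call in H929 was near the threshold (limma adjusted p = 0.0477) and its groups overlapped. It had 473, 366 and 444 FPKM in the libraries labelled shRBM39, against 378, 373 and 375 FPKM in those labelled scramble.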

How the data were processed

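The data are 16 RNA sequencing libraries from H929 and MM1S and 2 RIP libraries from MM1S, taken at the values deposited. The H929 and RIP tables hold FPKM made by the authors, per the file headers or names. Both MM1S tables are named FPKM but hold TPM as deposited, since all columns have the same fixed sum. Per the submitters' processing notes the builds are GRCm38 and mm10, which are mouse builds, while the symbols are human. Aligner, counter and annotation were not given in the sources used here. Columns were matched to samples by name, and groups follow the labels, with "In" read as indisulam from the series' description. Rows with no gene name (834 for the knockdown and 473 for indisulam, with at most 0.459% and 0.237% of TPM) were left out. No counts were available, so no counting interval is given, and depth is unknown except as a ratio within the H929 table.

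Each comparison was fitted on its own table by limma 3.58.1 under R 4.3.3, with its trend and robust options, on log2(value + 1). Tests were two-sided and covered genes that reached 1 in at least the number of libraries of the smaller group, with Benjamini-Hochberg adjustment and a threshold of 0.05. The added 1 understates the differences of low genes. RIP values were compared as log2((RBM39 + 1)/(IgG + 1)) where either library reached 1 FPKM. The alternatives were no filter, a filter at 5, a pseudocount of 0.1, median scaling, quantile normalization, a replicate block, limma without those options and leaving out each library in turn; a crossed block was added after seeing the data. With 1 MM1S knockdown library left out, the lone library of its group was taken to vary as the other group does. The fits were tested on simulated data. Libraries were not paired by replicate number.

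The 44 genes, the role lists and the neighbouring pathway lists were chosen with earlier results of these data known, CA9, PFKFB4 and PPFIA4 having already been reported among the largest H929 differences, so that counts over the lists are descriptions. Values in every library are given for RBM39, HIF1A, EGLN1 and EGLN3, for members called in at least 2 comparisons, for up to 4 called members of each role with the largest difference and a mean of at least 5, and for called members that went against their role; a few others were named after their values were seen. Of each neighbouring list up to 3 called genes per direction are named, and for RIP the 5 highest and 5 lowest ratios; a further gene that this rule names is not reported here. Promoters came from a RefSeq table, matched by symbol. Python 3.11.15, NumPy 2.4.6, pandas 2.3.3 and matplotlib 3.10.9 were also used.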

Additional observations from a re-analysis of the deposited data

Results flagged for a closer look

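For 20 of the 41 members compared, every library labelled shRBM39 lay on one side of its scramble libraries in H929 and on the opposite side in MM1S. The difference between the lines was not tested, since the 2 tables were normalized separately, and RBM39 itself also differed in opposite directions (log2 differences of 2.81 in H929 and -1.69 in MM1S). In 19 of the 20 the log2 difference was the larger in H929. The H929 minus MM1S gap in log2 difference was 1.58 for GPI, 0.27 for PFKL, 1.22 for ALDOA, 1.72 for TPI1, 1.49 for GAPDH, 2.53 for PGK1 and 1.5 for PGAM1. It was 2.24 for ENO1, 1.7 for PKM, 2.58 for LDHA and 1.02 for LDHB among the other constitutive enzymes, and 1.78 for ALDOC and 1.79 for ENO2. Of the HIF-induced genes it was 3.09 for CA9, 2.21 for AK4, 2.8 for BHLHE40, 1.0 for P4HA2, 0.67 for ERO1A and 3.38 for PPFIA4. MXI1 ran the other way at -0.31, below its scramble libraries in H929 and above them in MM1S, without overlap. Its H929 call ended under median scaling (limma adjusted p = 0.524). The place of PFKL among the 20 rests on a small H929 difference, which was not tested on columns with a common total. With 2 libraries against 2, 30.5% of all genes lay above and 31.9% below their scramble libraries without overlap in MM1S. In H929 25.1% of all genes lay above and 49.6% below without overlap. The share of all genes on opposite sides in the 2 lines is not given here, so the 20 of 41 cannot be set against it.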

How the results depend on the processing

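In H929 the 32 higher members stayed between 31 and 34 under the alternatives run, and the 7 lower became 4 under median scaling, which also put the constitutive and hypoxia-specific medians at 0.84 and 0.97. Leaving out 1 library gave 31 to 32 higher, 5 to 7 lower, and medians of 0.63 to 0.72 and 0.74 to 0.86. The MM1S knockdown counts moved most. The 1 higher member became 0 with no filter, 2 with a filter at 5, 2 under median scaling, 3 under quantile normalization and 0 without trend and robust. The 8 lower became 0 with no filter, where 0 of all genes were called (4966 at an unadjusted p under 0.05), 3 without trend and robust, 6 under quantile normalization and 12 with a filter at 5; the constitutive median was -0.45 under quantile normalization. Leaving out 1 library gave 0 to 3 higher, 0 to 9 lower, and medians of -0.71 to -0.52 and -0.32 to -0.010.

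With indisulam the 0 higher became 1 under median scaling (MXI1) and 2 under quantile normalization (MXI1 and PDK1), which put the constitutive median at -0.94. Leaving out 1 library gave 0 to 3 higher, 22 to 31 lower, and medians of -1.25 to -1.17 and -1.001 to -0.78; the 3 came without indisulam replicate 3 and were PFKM (0.53), PDK1 and MXI1. The RIP median of 0.27 was 0.27 with a pseudocount of 0.1, 0.11 with a filter at 5 and 0.25 relative to the median of all genes. No called member changed sign under these alternatives, none of which scaled the H929 columns to a common total. The causes were not tested.

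The deviations of libraries with the same replicate number correlated at 0.129, -0.00044 and 0.025 in H929 and -0.142 with knockdown. With indisulam the values were 0.137, -0.148 and -0.025. Deviations were taken from the mean of 2 or 3 libraries, which constrains these values. With knockdown the crossed value, 0.142, is fixed as the opposite of the same-number value. The correlations therefore cannot tell whether the numbers mark shared cultures or batches. With a replicate block the members called were 32 higher and 7 lower in H929, 0 higher and 2 lower with knockdown (255 in place of 1461 over all genes), and 0 higher and 27 lower with indisulam. A crossed replicate block with knockdown gave 0 higher and 4 lower, and 772 over all genes. Depth is unknown in MM1S, so for genes near 1 TPM counting error cannot be set apart from the differences between libraries.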
